A study of Mus musculus with 16 samples.

Results

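The mitochondrial genes of the mouse served here as DNA without nucleosomes inside a chromatin profiling experiment. The members were all 37 genes whose GENCODE vM21 symbol begins with mt-, of 55450 annotated genes. They comprise 2 rRNA genes, 22 tRNA genes and 13 protein genes, and all lie on the circular mitochondrial chromosome of 16299 bp (chrM, GRCm38/mm10). Every sequenced fragment on chrM was used. These numbered 146 to 3135 distinct fragments per library, where a distinct fragment is one pair of start and end coordinates counted once however often it was sequenced.

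The study profiled haploid spermatids from H2A.B triple knockout (KO) males and their wild-type (WT) siblings by AutoCUT&RUN, in which a micrococcal nuclease tethered to an antibody cuts and releases DNA around its target. H2A.B is a testis histone variant, and its 3 genes were disrupted together by CRISPR/Cas9 editing in B6;SJLF1/J zygotes, so that the KO is 1 strain. That strain was backcrossed to C57BL/6J males through heterozygous females. Spermatids were sorted live with Hoechst and propidium iodide from 2 pairs of siblings aged 2 months. Each animal gave 4 libraries, with antibodies to H3K4me3 (active promoters), H3K27me3 (Polycomb-repressed regions) and H3K9me3 (constitutive heterochromatin) and with an IgG that recognises no chromatin mark. The 16 libraries therefore formed 8 groups of 2, KO and WT for each antibody, and libraries with the same replicate number were taken as a sibling pair, since their titles share further number strings and the study's methods name sibling pairs.

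Mitochondrial DNA carries no histones. It is packed with the HMG-box protein TFAM into nucleoids, is present in many copies per cell and passes through the mother. Its genes encode the rRNAs and tRNAs of the mitochondrial ribosome and core subunits of respiratory complexes I, III and IV and of the ATP synthase (complex V). The longest stretch without a gene is the control region, which holds the promoters and the origin of heavy-strand replication. Fewer mitochondrial genomes per cell and less cutting of each genome cannot be told apart in these libraries.

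The libraries held 160383 to 6746583 distinct fragments. On chrM, each distinct fragment was represented by 1.13 to 18.0 deposited rows, the most in the IgG library of KO 1. H3K4me3 fragments within 1 kb of the starts of 8 spermatid genes summed to 85.4 to 139 CPM (here of distinct nuclear fragments) in the 4 animals, with 0 of the 8 genes at 0. Each list of 4 or 5 Sertoli, Leydig, peritubular and vessel, blood or spermatogonial genes summed to at most 8.92 CPM. The median gene stood at 10.2 to 17.4 CPM in the spermatid list and at most 1.27 CPM in the others. The edited H2A.B genes could not serve as a check of the KO label, since 0 to 10 fragments per library ended in any of the 3 genes and the edit removes only part of them. Libraries shared at most 7.21% of their chrM coordinates with another library. Libraries were compared by exact permutation (two-sided), for which 0.333 is the smallest p with 2 libraries a group, and antibodies by an exact sign-flip test over the 4 animals (two-sided), for which it is 0.125. Differences are therefore set against the SD between replicates.

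The share of a library that lay on chrM differed between antibodies in every animal. In the IgG libraries it was 0.424% and 0.503% in KO 1 and KO 2 and 0.463% and 0.481% in WT 1 and WT 2. In the H3K4me3 libraries it was 0.182% and 0.0923% in KO and 0.161% and 0.133% in WT. The H3K27me3 libraries held 0.0124% and 0.0336% in KO and 0.0105% and 0.0773% in WT, and the H3K9me3 libraries 0.00298% and 0.00582% in KO and 0.00237% and 0.00553% in WT. Counted by deposited rows, the IgG share was 0.956% to 1.46%. Rows per distinct fragment in IgG were 9.58 to 18.0 on chrM and 4.95 to 5.80 on nuclear chromosomes. Among distinct fragments, every one of the 4 animals gave the order IgG, H3K4me3, H3K27me3, H3K9me3, and no 2 antibodies overlapped. On the log2 scale IgG exceeded H3K4me3 by 1.76 ± 0.53 (SD, n = 4 animals), H3K4me3 exceeded H3K27me3 by 2.51 ± 1.63 and H3K27me3 exceeded H3K9me3 by 2.63 ± 0.81 (p = 0.125 for each, exact sign-flip test, the smallest it can give). The excess of H3K4me3 over H3K27me3 ran from 0.78 to 3.94 over the animals and was smaller in both animals of pair 2.

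**Figure D1:**
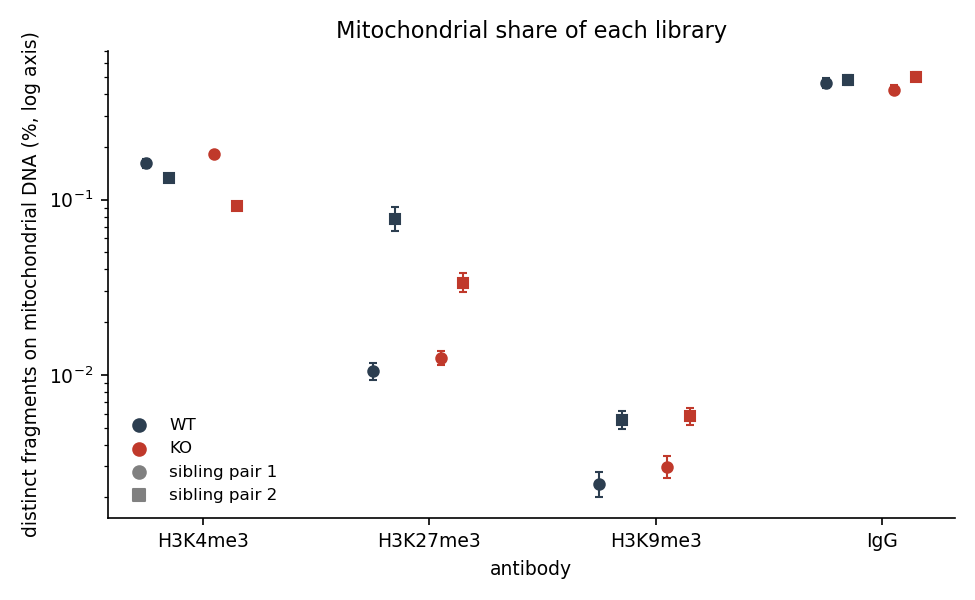
Percent of distinct fragments on mitochondrial DNA in each of the 16 libraries, on a log axis, by antibody, with 95% Wilson intervals that cover counting error only. The IgG libraries sit at 0.424% to 0.503% and the H3K9me3 libraries at 0.00237% to 0.00582%, and KO and WT overlap in every antibody.

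Over fragments of all lengths, KO and WT differed in this share by less than the spread between replicates. The KO minus WT difference in log2 share was -0.17 for H3K4me3, -0.48 for H3K27me3, 0.20 for H3K9me3 and -0.03 for IgG, against SDs between replicates of 0.51, 1.61, 0.78 and 0.13. The sibling pairs disagreed in sign for H3K4me3 (0.18 and -0.52), H3K27me3 (0.25 and -1.20) and IgG (-0.12 and 0.06). The exact permutation p was 0.667 for H3K9me3 and 1 for the other antibodies. Among fragments of up to 120 bp alone the difference was -0.57 for H3K4me3, -0.76 for H3K27me3, -0.05 for H3K9me3 and -0.13 for IgG, against SDs of 0.63, 0.73, 0.12 and 0.02. There both IgG KO libraries lay below both WT libraries (exact permutation p = 0.333), and the genotypes overlapped in the 3 marks. The differences of H3K27me3 and IgG exceeded their SDs. By pair, KO lay below its sibling in both pairs for H3K4me3 (-0.16 and -0.98), H3K27me3 (-0.21 and -1.32) and IgG (-0.16 and -0.10). For H3K9me3 the pairs disagreed (0.07 and -0.17). In the share over all lengths, the 2 replicates of H3K27me3 and of H3K9me3 lay further apart than the genotypes, with the second pair higher in both KO and WT.

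Fragments from chrM were short and showed no nucleosome peak. Their median length ran from 81 to 136 bp over the 16 libraries, against 95 to 193 bp for nuclear chromosomes 1 to 19, X and Y of the same libraries. The most frequent length of the pooled KO or WT fragments lay between 50 and 102 bp on chrM in all 4 antibodies, and between 171 and 186 bp on nuclear chromosomes for the 3 histone marks. Fragments of nucleosome size (within 20 bp of 165 bp) were 0.366 to 0.723 times as frequent per bp of length as fragments within 10 bp of 115 bp on chrM. On nuclear chromosomes the same quotient was 1.55 to 14.8 for the marks and 0.646 to 1.35 for IgG. In the IgG libraries the nuclear fragments thus came closest to the mitochondrial ones.

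**Figure D2:**
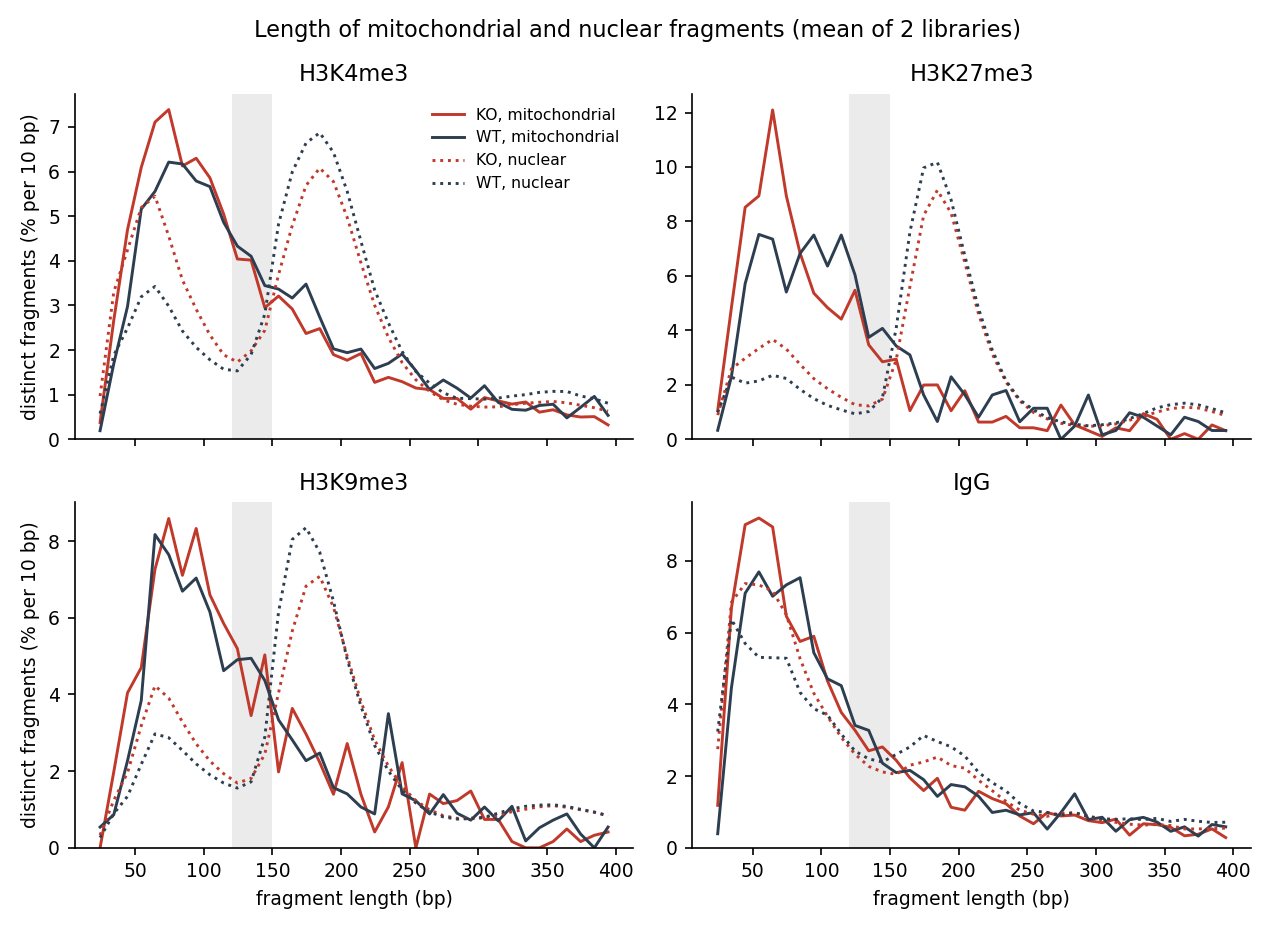
Length of distinct fragments in percent per 10 bp, mean of the 2 libraries of each group, for KO (red) and WT (dark blue) on mitochondrial DNA (solid) and nuclear chromosomes (dotted), with the lengths between 120 and 150 bp, which neither size class counts, shaded. The nuclear lines of the 3 marks rise to a second peak near the size of a nucleosome, and the mitochondrial lines fall through that range.

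The question the nuclear data address is whether loss of H2A.B changes the balance of small against large fragments, and chrM shows that balance where no histone is present. Small fragments, of up to 120 bp, were counted against large ones, of 150 bp or more. In H3K4me3 there were 1.48 and 1.32 small fragments per large one on chrM in KO 1 and KO 2, and 1.05 and 0.99 in WT 1 and WT 2. Both KO libraries lay above both WT libraries. The log2 ratio was higher in KO by 0.45, by 0.49 in pair 1 and 0.42 in pair 2, against an SD between replicates of 0.09 (exact permutation p = 0.333, the smallest possible).

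H3K27me3 moved in the same direction, with 3.52 and 2.61 small fragments per large one in KO and 2.38 and 1.59 in WT. The log2 difference of 0.64 (0.56 and 0.71 by pair) exceeded the SD between replicates of 0.36 (exact permutation p = 0.333). With the chr1 copy counted in the difference was 0.56 and the genotypes overlapped (exact permutation p = 0.667). Over fragments with A or T inside both ends it was 0.35, with log2 ratios of 1.27 and 1.25 in KO and 0.87 and 0.96 in WT, which did not overlap. The counts behind it were low, 51 to 91 large fragments per library. The 95% counting intervals were 0.05 to 1.07 in pair 1 and 0.05 to 1.38 in pair 2.

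H3K9me3 gave 2.51 and 1.21 in KO and 1.72 and 0.97 in WT. Its log2 difference of 0.44 (0.55 and 0.33 by pair) was smaller than the SD of 0.67, the genotypes overlapped, and the counting intervals of both pairs included 0 (exact permutation p = 0.667). The difference was 0.23 with large fragments limited to 150 to 250 bp, and 1.03 over fragments with A or T inside both ends, where both KO libraries lay above both WT libraries (exact permutation p = 0.333). Over the remaining H3K9me3 fragments KO lay below its sibling in both pairs, with log2 ratios of 1.46 and -0.07 against 1.85 and 0.50 in WT. IgG gave 3.22 and 1.45 in KO and 2.05 and 1.31 in WT. Its log2 difference of 0.40 (0.65 and 0.15 by pair) was also below its SD of 0.66 (exact permutation p = 0.667), and the interval of pair 2, -0.14 to 0.43, included 0.

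The KO library was higher than its WT sibling in all 8 comparisons on chrM, which come from 4 animals and so are not 8 independent tests. The KO minus WT difference in median length was -17.5 bp in H3K4me3, -21.5 bp in H3K27me3, -8.75 bp in H3K9me3 and -11.8 bp in IgG, against SDs of 4.92, 7.43, 19.98 and 16.7 bp. By pair it was -20 and -15 bp, -17 and -26 bp, -9.5 and -8 bp, and -16 and -7.5 bp, below 0 in each. Pair 1 had more small fragments per large one than pair 2 in every antibody and both genotypes on chrM. Over animals, H3K27me3 had a higher ratio on chrM than H3K4me3, by 1.02 ± 0.25 on the log2 scale, and higher than IgG by 0.37 ± 0.33, each in 4 of 4 animals (p = 0.125, exact sign-flip test).

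The nuclear chromosomes of the same libraries shifted in the same direction. Their log2 ratio was higher in KO by 0.88 in H3K4me3, 0.69 in H3K27me3, 0.55 in H3K9me3 and 0.48 in IgG, with SDs of 0.13, 1.09, 0.79 and 0.15. By pair it was 0.79 and 0.97, 0.68 and 0.71, 0.57 and 0.53, and 0.48 and 0.48. On the log2 scale the shift on chrM was smaller than on nuclear chromosomes by 0.43 in H3K4me3, by 0.30 in pair 1 and 0.55 in pair 2. This difference of differences exceeded its SD of 0.22 (exact permutation p = 0.333), but with large fragments limited to 150 to 250 bp chrM minus nuclear was -0.38 and the genotypes overlapped (exact permutation p = 0.667). The order depended on the measure. Without the log, the H3K4me3 ratio rose by 0.38 on chrM (0.43 and 0.33 by pair) and by 0.27 on nuclear chromosomes (0.23 and 0.31). The nuclear median length differed by -13.5, -4.5, -1.5 and -27.5 bp in H3K4me3, H3K27me3, H3K9me3 and IgG, against SDs of 8.73, 12.97, 7.16 and 11.9 bp. The fall in median length was larger on chrM in the 3 marks and smaller in IgG. In both pairs the chrM shift of H3K4me3 lay below that of each of the 21 nuclear chromosomes, whose lowest values were 0.66 and 0.92. For H3K27me3, H3K9me3 and IgG the chrM shift was smaller than the nuclear one by 0.06, 0.11 and 0.08, within SDs of 1.45, 1.46 and 0.52. These SDs also hold the difference between pairs. By pair, chrM minus nuclear was -0.11 and 0.003 in H3K27me3, -0.02 and -0.20 in H3K9me3, and 0.17 and -0.33 in IgG. These values moved with the settings, as chrM minus nuclear ran from -0.37 to 0.13 in H3K27me3, from -0.38 to 0.05 in H3K9me3 and from -0.29 to -0.01 in IgG. A small to large ratio above the nuclear one was seen on chrM in all 16 libraries, with means over 4 animals of 1.48 ± 0.31 in H3K4me3, 3.20 ± 1.18 in H3K27me3, 2.35 ± 1.19 in H3K9me3 and 0.66 ± 0.43 in IgG (log2, SD). Pair 1 lay above pair 2 in H3K27me3 (2.17 to 4.28 over the animals), H3K9me3 (1.22 to 3.39) and IgG (0.14 to 1.09).

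**Figure D3:**
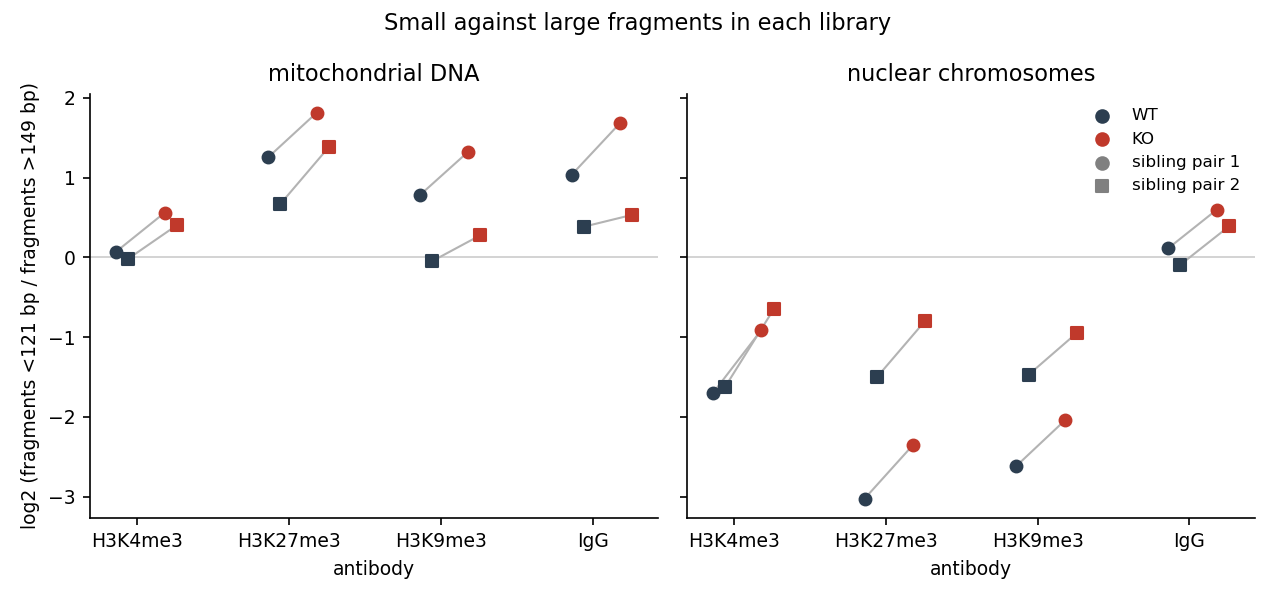
Log2 of fragments of up to 120 bp over fragments of 150 bp or more in each library, for mitochondrial DNA (left) and nuclear chromosomes (right), with a line from each WT library to its KO sibling. All 16 lines rise from WT to KO, and in H3K4me3 the mitochondrial lines rise by 0.49 and 0.42 against 0.79 and 0.97 on nuclear chromosomes.

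Duplicates moved with the pair, and their part in the ratio was examined by recounting alone. On chrM rows per distinct fragment were more numerous in pair 1 in H3K4me3, H3K9me3 and IgG, in both genotypes, and in pair 2 in H3K27me3 (2.43 against 7.07 in KO and 2.53 against 3.22 in WT). Counting every deposited row gave a log2 KO minus WT ratio of 0.71 in H3K4me3 in place of 0.45. With the libraries of an antibody thinned to the same number of chrM rows the differences were 0.45, 0.60, 0.43 and 0.40 for H3K4me3, H3K27me3, H3K9me3 and IgG, as large as without thinning to within 0.04.

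The ends of the fragments on chrM lay at particular base steps. A TA step, with the cut between T and A, makes up 10.4% of all steps of chrM, yet it held 57.6% ± 4.75 of the ends in H3K4me3 (SD, n = 4 libraries), 48.9% ± 11.7 in IgG, 40.4% ± 15.97 in H3K9me3 and 27.8% ± 7.17 in H3K27me3. In H3K4me3 the values were 52.3% and 59.7% in KO and 55.5% and 63.1% in WT. CC/GG steps, which make up 9.21% of chrM, held 1.66% ± 1.25 of ends there. In H3K27me3 the CC/GG steps held 11.3% ± 1.71, more than their share of the sequence. Micrococcal nuclease is known to prefer A and T at the cut.

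The 20 junctions that held most ends in the 4 H3K4me3 libraries were all TA steps, out of 16298 junctions on chrM. They were chosen on those libraries, in which they held 3.74% to 4.13% of ends. In the IgG libraries, which the choice did not use, the same 20 junctions (0.123% of all) held 1.91%, 3.88%, 2.32% and 3.43% of ends in KO 1, KO 2, WT 1 and WT 2. TA steps as a class made up 10.4% of steps and held 48.9% of IgG ends. Thus 20 TA junctions of average use would also hold more than 0.123% of ends. The first 3 of the 20 chosen junctions are shown 5′ to 3′ on the plus strand of the GRCm38 reference, because they show what these ends share. Capitals mark the bases on either side of the cut.
Control region (chrM:15425-15454): tacataaatttacaTAgtacaacagtacat
mt-Rnr2 (chrM:2357-2386): ggaccaagttacccTAgggataacagcgca
mt-Nd1 (chrM:3035-3064): aattaatttaaaccTAgggattttatttat
The junction in the control region held 10 and 23 ends in H3K4me3 KO, 8 and 13 in WT, and 1 to 4 in each IgG library. The junction in mt-Rnr2, the large rRNA gene, held 8 and 21 in KO and 6 and 21 in WT, with 2 to 11 in IgG. That in mt-Nd1, a complex I gene, held 9 and 13 in KO and 7 and 19 in WT, with 0 to 4 in IgG. The end counts of KO and WT in H3K4me3 overlapped at all 3 junctions. They were not scaled by the chrM ends of each library, 4918 and 6270 in KO and 2528 and 5788 in WT.

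A larger share of ends lay at TA on chrM than on nuclear DNA of the same libraries for H3K4me3 and IgG, but chrM also holds more TA steps. On chromosome 19, where TA makes up 6.08% of steps, 35.7% ± 2.66 of H3K4me3 ends and 31.98% ± 9.84 of IgG ends lay at TA. The chrM value was higher by 21.9 ± 2.24 points in H3K4me3 and 16.9 ± 5.32 points in IgG, in 4 of 4 animals each (p = 0.125, exact sign-flip test). For H3K27me3 it was lower by 4.74 ± 6.18 points (lower in 3 of 4 animals) and for H3K9me3 higher by 1.21 ± 12.1 points (higher in 2 of 4). Relative to the TA share of steps, the ends were less enriched at TA on chrM than on chromosome 19 in all 4 antibodies. In H3K4me3 the enrichment was 5.56 ± 0.46 times on chrM and 5.87 ± 0.44 times on chromosome 19, in IgG 4.72 ± 1.13 and 5.26 ± 1.62, in H3K9me3 3.90 ± 1.54 and 6.44 ± 0.68 and in H3K27me3 2.68 ± 0.69 and 5.35 ± 0.25 (SD, n = 4 libraries). It was lower on chrM in 4 of 4 animals in each (p = 0.125, exact sign-flip test).

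Between genotypes, the KO minus WT difference in the percent of chrM ends at TA was -3.29 points in H3K4me3, with -3.20 and -3.38 by pair. It was -0.27 points in H3K27me3 (by pair -5.03 and 4.48), -5.43 points in H3K9me3 (by pair -9.12 and -1.74) and -3.73 points in IgG (by pair -7.04 and -0.42). KO lay below its sibling in both pairs for H3K4me3, H3K9me3 and IgG. Without regard to the pairs the genotypes overlapped in every antibody (exact permutation p of 0.667, 1, 0.667 and 0.667), and pair 2 was above pair 1 in every antibody and genotype.

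**Figure D4:**
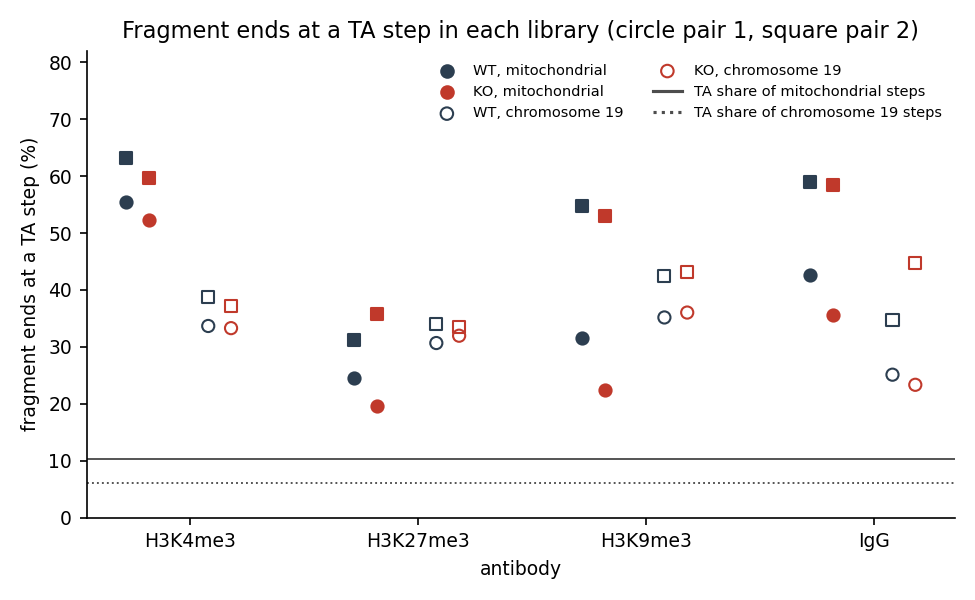
Percent of fragment ends at a TA step in each library on mitochondrial DNA (filled) and on chromosome 19 (open), with circles for sibling pair 1 and squares for pair 2, and the TA share of all steps as lines at 10.4% and 6.08%. All mitochondrial points of H3K4me3 lie above its chromosome 19 points, and those of H3K27me3 do not.

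A stretch of chrM has a near-identical copy in the nuclear genome, and fragments were placed on both. The reference sequence of chr1:24611535-24616188 (minus strand) matches chrM:6390-11042 at 99.9% over 4654 aligned bases, with 2 substitutions and 1 extra base in the chr1 copy. It spans the end of mt-Co1, mt-Co2, mt-Atp8, mt-Atp6, mt-Co3, mt-Nd3, mt-Nd4l and part of mt-Nd4 with the tRNA genes between them. In each library the deposited rows inside the stretch were split nearly evenly, 43.7% to 56.4% of them being placed on chr1. Row density in the stretch was 0.393 to 0.792 of that on the rest of chrM. The chr1 copy carried 6.66 to 153 distinct fragments per kb, against 0.04996 to 1.21 per kb over all of chromosome 1.

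Among distinct fragments the split showed less where duplicates were many. Of the coordinates on the chr1 copy, 94.2% to 97.1% also occurred on chrM in the same IgG library, 60.4% to 89.5% in H3K4me3, 54.8% to 90.0% in H3K27me3 and 17.1% to 42.1% in H3K9me3. The density of distinct chrM fragments inside the stretch relative to outside was 0.953 to 1.02 in IgG and 0.439 to 0.831 in H3K9me3. With the chr1 fragments translated to chrM and counted once with them, the quotient was 0.937 to 1.44 over the 16 libraries.

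At one of the 2 substitutions the placements were not even. T9461C is the third base of mt-Nd3 (positions counted from 1 on chrM, chrM base first and the base of the chr1 copy last), and the 30 bases around it are shown with that base in capitals, both on the chrM strand.
chrM (chrM:9446-9475): ccagaagagagtaatTaacctgtacactgt
chr1 copy (chr1:24613103-24613132): ccagaagagagtaatCaacctgtacactgt
Over all libraries 161 rows had a 25-bp end that covered this base at least 5 bp from its edges. Of these, 160 rows (24 distinct fragments, from 9 libraries of both genotypes) were placed on chr1 and 1 on chrM, which puts 99.4% on chr1. At 3777 other positions of the stretch covered by 100 or more rows and over 50 bp from a difference, the chr1 share ran from 36.8% to 63.8% with a median of 50.2%. The bases of the reads were not analysed here, so which base they carry was not tested. No row covered A6393T in this way, which lies at the edge of the stretch.

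Along chrM the fragments lay over all gene classes at close to even density when averaged over the 16 libraries. Density is given as fragment midpoints per bp divided by the same over all of chrM, so that 1 is the mean, and is averaged over the 16 libraries. The rRNA genes stood at 1.05 ± 0.15 (SD, n = 16 libraries), the 7 complex I genes at 1.03 ± 0.09, complex III at 1.06 ± 0.21, the 3 complex IV genes at 0.89 ± 0.12, the 2 complex V genes at 0.89 ± 0.16 and the tRNA genes at 0.95 ± 0.20. With the chr1 copy counted in, complex IV stood at 0.99 ± 0.09 and complex V at 1.02 ± 0.16. Over the 16 libraries of all antibodies, no class departed from 1 by more than the spread between libraries once the copy was included. This spread also holds differences between antibodies. Within single antibodies complex III (mt-Cytb alone) departed from 1 by more than its SD in H3K4me3 (0.90 ± 0.03) and in H3K27me3 (1.27 ± 0.17). In H3K9me3 (0.86 ± 0.15) and IgG (0.95 ± 0.16) it did not (copy counted in, SD, n = 4 libraries each).

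Of the rRNA genes, mt-Rnr1 (chrM:70-1024) stood at 1.03 ± 0.26 and mt-Rnr2 (chrM:1094-2675) at 1.06 ± 0.16. As listed on chrM, the highest protein genes were mt-Nd1 (chrM:2751-3707) at 1.24 ± 0.20, mt-Nd2 (chrM:3914-4951) at 1.202 ± 0.23 and mt-Cytb (chrM:14145-15288) at 1.06 ± 0.21. mt-Nd1 and mt-Nd2 encode subunits of complex I and mt-Cytb that of complex III. With the copy counted in, mt-Co3, a complex IV gene inside the stretch, was highest at 1.17 ± 0.31, above mt-Nd1 at 1.15 ± 0.18 and mt-Nd2 at 1.12 ± 0.18, and mt-Cytb stood at 0.995 ± 0.21. By antibody, as listed on chrM, the mean of mt-Cytb was 1.35 ± 0.15 over 4 libraries in H3K27me3 and 0.949 to 0.995 in the others. This difference was not tested. In H3K4me3 mt-Nd1 was above 1 in all 4 libraries, at 1.25 and 1.41 in KO and 1.23 and 1.34 in WT. The lowest were mt-Nd3 (chrM:9459-9806) at 0.67 ± 0.24, mt-Co2 (chrM:7013-7696) at 0.84 ± 0.28 and mt-Co1 (chrM:5328-6872) at 0.87 ± 0.12. All or part of these 3 lies in the copied stretch, and with the copy counted in they stood at 0.88 ± 0.15, 1.02 ± 0.22 and 0.88 ± 0.13. The other 7 protein genes ranged from 0.87 (mt-Atp6) to 0.99 (mt-Co3), and neighbours in this order differed by less than their spread.

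The tRNA genes span 59 to 75 bp and held 18 to 89 fragments each over the 16 libraries. As listed on chrM, the highest were mt-Ts2 (chrM:11613-11671) at 1.66 ± 1.18, mt-Tq (chrM:3772-3842) at 1.48 ± 0.70 and mt-Tl1 (chrM:2676-2750) at 1.44 ± 1.28, and the lowest mt-Te (chrM:14071-14139) at 0.60 ± 0.44, mt-Tt (chrM:15289-15355) at 0.50 ± 0.54 and mt-Tf (chrM:1-68) at 0.25 ± 0.34. With the copy counted in, mt-Tr at 1.46 ± 0.76 and mt-Td at 1.41 ± 0.85, both inside the stretch, came after mt-Ts2 at 1.54 ± 1.02 and before mt-Tq at 1.37 ± 0.66 and mt-Tl1 at 1.32 ± 1.10. All of these lay within their spread of each other. mt-Tt stood at 0.25 without pair 1 and 0.75 without pair 2, and mt-Tf at 0.12 and 0.38. mt-Tf had no fragment in 8 libraries and 18 in all. It lies at the first base of the linear reference, where a fragment that crosses the ends of the circle has no single pair of coordinates.

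The control region (chrM:15423-16299) stood at 1.15 ± 0.21 as listed on chrM and at 1.08 ± 0.21 with the chr1 copy counted in. By antibody the latter was 1.15 ± 0.14 in H3K4me3, 0.91 ± 0.25 in H3K27me3, 0.998 ± 0.17 in H3K9me3 and 1.27 ± 0.11 in IgG. The control region held the densest 100-bp bin of the H3K4me3 libraries. With the chr1 copy counted in, chrM:15501-15600 reached 2.39 ± 0.40 (SD, n = 4 libraries, 1.80 to 2.63) in H3K4me3 and 2.57 ± 1.39 in IgG. That bin has a GC content of 22%. The next were in mt-Nd1 (chrM:3501-3600) at 1.72 ± 0.05 and in mt-Nd2 (chrM:4601-4700) at 1.70 ± 0.24. The lowest was chrM:1-100 at 0.52 ± 0.12. Another part of the control region, chrM:15675-16039, has a copy at chr12:97061428-97061792 that is 99.7% identical over 365 bp. Of the rows that lay wholly inside this part over the 16 libraries, 808 were placed on chr12 and 1102 on chrM. These were not added back, so the density of the control region was computed without the chr12 rows. The densest bin lies outside the part copied on chr12. Across 162 whole bins the mean H3K4me3 density correlated with GC content at r = -0.13 and with the number of TA steps at r = 0.26, given as descriptions over bins that share libraries.

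**Figure D5:**
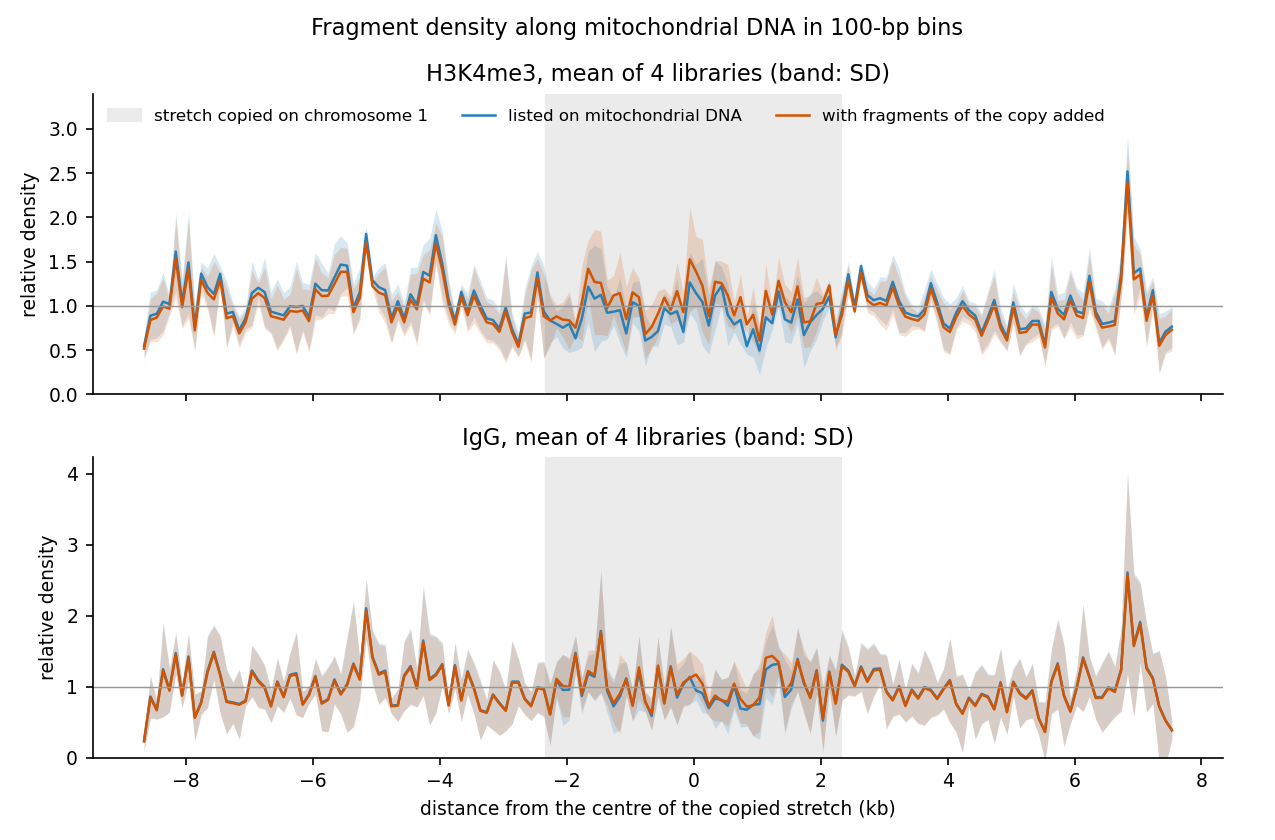
Density of distinct fragments in 100-bp bins relative to the chrM mean, against distance in kb from the centre of the stretch copied on chromosome 1 (shaded), for H3K4me3 and IgG (line, mean of 4 libraries; band, SD), as listed on mitochondrial DNA (blue) and with the fragments of the copy added (orange). Adding the copy raises the H3K4me3 line inside the stretch and hardly moves that of IgG, and both antibodies are highest in the control region.

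The resemblance of KO and WT profiles varied between antibodies. Over 163 bins of 100 bp, the mean KO and WT densities correlated at r = 0.58 in H3K4me3, 0.38 in IgG, 0.17 in H3K9me3 and 0.02 in H3K27me3. Between the 2 replicates of KO r was 0.44, 0.15, 0.003 and 0.08 in H3K4me3, IgG, H3K9me3 and H3K27me3, and between those of WT 0.36, 0.24, 0.03 and 0.06. Between the KO and WT libraries of a pair it was 0.30 and 0.57, 0.13 and 0.33, 0.08 and 0.14, and 0.09 and 0.02, so low values were also found within a genotype. In bins of 500 bp r was 0.79, 0.59, 0.50 and -0.01. The libraries held 1264 to 3135 chrM fragments in H3K4me3, 754 to 1153 in IgG, 155 to 473 in H3K27me3 and 146 to 305 in H3K9me3. These r values describe bins of the same libraries and carry no test.

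No mitochondrial gene was called different between KO and WT. In limma-voom fitted to all genes with 10 or more fragments, 0 of the 37 mt- genes passed an adjusted p of 0.05 in H3K4me3, 0 of 16 tested in H3K27me3, 0 of 16 in H3K9me3 and 0 of 34 in IgG. The background was also empty, with 0% of 27111, 20832, 26751 and 6693 genes called, so these counts say little of the members. At an unadjusted p under 0.05 limma-voom had 0 mt- genes in each antibody, among 96 to 195 genes in all, and limma-trend too called 0 genes. With the replicate block, 0, 6, 61 and 50 genes were called for H3K4me3, H3K27me3, H3K9me3 and IgG, and 0 of them were mt- genes. At an unadjusted p under 0.05 that fit had 4 of 37 mt- genes in H3K4me3, among 1549 of 27111 genes in all, and 1 of 16 in H3K27me3 among 550 of 20832. It had 0 of 16 in H3K9me3 among 1873 of 26751, and 0 of 34 in IgG among 482 of 6693.

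In H3K4me3 the log2 KO minus WT difference in CPM (of all distinct fragments) had a median of -0.26 over the 37 mt- genes, 6 of them above 0, beside 0.05 over all genes tested. Its direction rested on single libraries, as the median was 0.38 with 34 of 37 above 0 without KO 2, -0.69 with 2 above 0 without KO 1, -0.13 without WT 1 and -0.51 without WT 2. The lowest unadjusted p of an mt- gene was 0.0928 for mt-Ts2, a serine tRNA gene with 11 and 9 fragments in KO and 7 and 17 in WT. Its log2 difference was -1.08 ± 0.59 (SE). The largest rRNA gene, mt-Rnr2, gave 254 and 334 H3K4me3 fragments in KO and 95 and 309 in WT, with a log2 difference of -0.04 ± 0.30 (SE). No mt- gene kept 1 sign of the KO minus WT difference in relative density in all 8 sibling comparisons, the most being 6 of 8.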

How the data were processed

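The 16 libraries were sequenced from both ends, and the authors deposited for each a list of aligned fragments with chromosome, start, end and length in bp and no count or score. Per the labels' processing notes the aligner was Bowtie2 2.3.4.3 on mm10. By default this aligner places a fragment that matches 2 places equally well in one of them. The study's methods name duplicate removal with Picard, but rows with the same coordinates recur in the deposited files.

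Rows with the same coordinates were collapsed within a library, and chrM was compared with chromosomes 1 to 19, X and Y. Counting intervals and Wilson intervals (95%) cover counting error only, and PCR rows are not independent molecules. The chrM sequence was searched against the nuclear genome of GRCm38 with blastn 2.17.0. Fragments with their midpoint in a gene were tested with limma 3.58.1 in R 4.3.3 (voom, library size all distinct fragments, Benjamini-Hochberg over all genes tested). The code was also run on simulated Poisson counts without variation between animals, which cannot show how the test performs on these libraries. Single values were tested by exact permutation over libraries. Sequences are from the GRCm38 reference. Genes named are both rRNA genes, the 3 highest and lowest protein and tRNA genes by mean density, the control region and any mt- gene called or of 1 sign in all 8 comparisons. The mt-Ts2 test, the 20 junctions and the values of mt-Co3, mt-Atp6, mt-Tr and mt-Td were picked after values were seen. The members and lists were chosen with earlier results of these data known.

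The study's methods name sibling pairs, and same-numbered libraries share further number strings in their titles, whose meaning the labels do not give. Their deviations from the group means over genes correlated at 0.40, 0.53, 0.50 and 0.15 for H3K4me3, H3K27me3, H3K9me3 and IgG, and the numbers were taken to pair the samples. The alternatives counted every row, changed the length classes, left out or added the nuclear copy, thinned the rows, kept only fragments with A or T inside both ends, and left out each replicate. Adding the copy, the A or T fragments and the alternatives for end steps (enrichment over the TA share included) and gene density were chosen after seeing the data.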

Additional observations from a re-analysis of the deposited data

Results flagged for a closer look

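The quotient of nucleosome-size fragments (within 20 bp of 165 bp) to shorter ones (within 10 bp of 115 bp) on chrM moved in opposite directions between antibodies. Its log2 KO minus WT difference was -0.30 in H3K4me3 (-0.40 and -0.20 by pair) and -0.10 in H3K9me3 (-0.18 and -0.03), and 0.25 in H3K27me3 (0.08 and 0.42) and 0.34 in IgG (0.10 and 0.58). Both sibling pairs went down in the first 2 antibodies and up in the other 2, and the difference between antibodies was not tested. Counting error was not computed for this quotient. The H3K27me3 libraries held 155 to 473 chrM fragments of all lengths and the H3K9me3 libraries 146 to 305, of which the quotient uses only a part. In H3K9me3 the difference was within the SD between replicates of 0.29, and it turned to 0.27 when every deposited row was counted. With every row the IgG difference was 0.043 and the genotypes overlapped (exact permutation p = 0.667).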

How the results depend on the processing

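The KO minus WT log2 ratio on chrM was above 0 in all 4 antibodies under all alternatives run, at 0.38 to 0.71 in H3K4me3, 0.35 to 0.76 in H3K27me3, 0.23 to 1.03 in H3K9me3 and 0.21 to 0.57 in IgG, and with 1 pair left out at 0.42 to 0.49, 0.56 to 0.71, 0.33 to 0.55 and 0.15 to 0.65. The replicate block cannot move these means in a balanced design (0.45, 0.64, 0.44 and 0.40 with the pairing) and says nothing of their stability. Counting every deposited row moved the H3K4me3 ratio to 0.71, its median length to -22.5 bp, the nucleosome-size quotient to 0.50 in H3K27me3, 0.27 in H3K9me3 (reversed) and 0.043 in IgG, the share of H3K9me3 to -0.12 (reversed), the chrM minus nuclear ratio of H3K9me3 to 0.051 (reversed) and the log2 share of IgG over H3K4me3 to 2.81. Length classes of up to 100 against 180 bp or more turned the chrM minus nuclear ratio to 0.13 in H3K27me3 and 0.035 in H3K9me3, which was -0.37 in H3K27me3 and -0.27 in IgG with every row and -0.38 in H3K9me3 and -0.29 in IgG with large fragments of 150 to 250 bp, and counting only fragments of up to 120 bp turned the H3K9me3 share to -0.050 and moved that of H3K4me3 to -0.57 and of IgG to -0.13. In H3K4me3 the chrM minus nuclear ratio was between -0.44 and -0.38 (the genotypes overlapped with large fragments of 150 to 250 bp) and, with 1 pair left out, between -0.55 and -0.30. The cause of these moves was not tested.

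With 1 pair left out, the chrM minus nuclear ratio ran from -0.11 to 0.0034 in H3K27me3 and from -0.33 to 0.17 in IgG, the share from -0.52 to 0.18 in H3K4me3, from -1.20 to 0.25 in H3K27me3 and from -0.12 to 0.063 in IgG, and the nucleosome-size quotient from 0.084 to 0.42 in H3K27me3 and from 0.10 to 0.58 in IgG. The r of KO with WT profiles ran from 0.30 to 0.57 in H3K4me3, 0.022 to 0.090 in H3K27me3, 0.077 to 0.14 in H3K9me3 and 0.13 to 0.33 in IgG, in H3K4me3, H3K9me3 and IgG lowest without pair 2. In 500-bp bins it was 0.79, -0.0046, 0.50 and 0.59, with every row counted 0.10 in H3K27me3, 0.12 in H3K9me3 and 0.59 in IgG, and with the chr1 copy added -0.011 in H3K27me3 and 0.083 in H3K9me3.

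Genes called over the whole table were 2, 17 and 1 without the filter on low counts in H3K27me3, H3K9me3 and IgG, 10 in H3K27me3 and 6 in IgG with every row counted, and 6, 61 and 50 with the replicate block. Leaving out 1 library gave 0 to 11 in H3K4me3 (11 without WT 2), 0 to 10 in H3K27me3 (10 without WT 1, 1 without WT 2), 0 to 18 in H3K9me3 (18 without KO 1, 8 without KO 2) and 0 to 1 in IgG (1 without WT 2), with the lone library assumed to vary like the other group, and 0 mt- genes were called in any of these fits. Among the genes ranked highest and lowest on chrM, the tRNA genes mt-Tt and mt-Tf moved by over 1.5 times without a pair. H3K27me3 and H3K9me3 held few chrM fragments, with 46 to 123 large ones per library.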

Other observations

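The share of chrM fragment ends with A or T as the first base inside differed between antibodies as the TA steps did. It was 84.0% to 91.6% in H3K4me3, 67% to 87% in IgG, 53.7% to 81.1% in H3K9me3 and 50.2% to 61.9% in H3K27me3, where 63.3% of the bases of chrM are A or T. On chromosome 19 the H3K27me3 libraries stood at 78.1% to 84.2%.

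In H3K4me3, fragments with A or T inside both ends had fewer small fragments per large one than the other chrM fragments in 4 of 4 libraries. In H3K4me3 KO 1 the log2 ratio (small over large) was 0.40 against 1.06 for the other chrM fragments, in KO 2 0.31 against 0.81, in WT 1 -0.03 against 0.46 and in WT 2 -0.02 against 0.04. The same held in every IgG library, at 1.19 against 2.31 and 0.46 against 0.79 in KO, and 0.58 against 2.09 and 0.22 against 0.95 in WT. It went the other way in H3K27me3 WT 2 (0.96 against 0.50) and H3K9me3 KO 2 (0.44 against -0.07). The KO minus WT difference over the A or T fragments alone, an alternative chosen after seeing the data, was 0.38 in H3K4me3, 0.35 in H3K27me3, 1.03 in H3K9me3 and 0.43 in IgG. Over the other chrM fragments KO lay above its sibling in both pairs in H3K4me3 and H3K27me3, and the pairs disagreed in IgG. In H3K9me3 KO lay below its sibling in both pairs, at 1.46 and -0.07 against 1.85 and 0.50 in WT.

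A less similar nuclear copy on chr2 (chr2:22587288-22590534, 97.4% identical over 3260 bp) carried 1.85 to 46.8 distinct fragments per kb, and one on chr4 (chr4:80002330-80005204, 93.0% identical over 2875 bp) 0.696 to 5.22 per kb.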
